A study of Mus musculus with 24 samples.

Results

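The 10 genes described here mark microglia, the resident immune cells of the brain, and include the complement protein C1q that these cells make. They were C1qa, C1qb, C1qc, Ctss, Laptm5, Itgam, Csf1r, Cx3cr1, P2ry12 and Tmem119, chosen by name as the measured features whose annotated symbol is one of these. Each had 1 feature, so 10 of the 19572 features with a gene (22206 in all) are concerned. The names were drawn up with earlier results of these data known, so the choice was not blind to the expression values. Levels are deposited values on a log2 scale, on which 1 unit is a 2-fold difference of deposited values, and they are compared between arrays for 1 gene, never between genes.

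The study measured total RNA on 24 arrays from 3 brain regions (cerebral cortex, hippocampus, cerebellum) of 4 wild-type (WT) mice and 4 mice that lacked glutamine synthetase in the liver (KO). This enzyme binds ammonia to glutamate. By its title it asks how raised blood ammonia changes brain transcripts and proteins. The knockout is confined to the liver by its description, so brain cells of both genotypes keep the enzyme. How it was deleted, and the strain, age and sex of the mice, are not stated in the labels. Each of the 6 groups (3 regions by 2 genotypes) has 4 arrays, and the titles number the animals 1 to 4 within a genotype in every region, so the 3 regions of a number were taken as 1 animal.

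Microglia enter the brain early in development, renew themselves there and depend on signals through the receptor Csf1r. C1q starts the classical complement pathway, a protein cascade that tags targets for removal, and in the brain it comes mostly from microglia and can mark synapses for engulfment. The complement receptor that contains Itgam recognises tagged targets, and P2ry12 and Cx3cr1 let microglia sense nucleotides from damaged cells and the neuronal ligand Cx3cl1.

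The arrays were alike within groups, with correlations of 0.9803 to 0.9958 and no pair of identical arrays. Their small number limits the precision of every value. Markers of each region were highest in that region: the mean of 9 cerebellar neuron genes was 15.27 ± 0.26 (SD, n = 4) in WT cerebellum and 9.01 ± 0.07 (SD, n = 4) in WT cortex. Cerebellum KO 3 stood apart from the other 7 cerebellum arrays. In 23.8% of all features it lay above all 7. It was lower for the cerebellar neuron genes (13.80 against 14.90 to 15.46) and higher for 9 oligodendrocyte genes (13.86 against 11.75 to 12.36), with each gene of both lists outside the range of the other 7. Of 10 brainstem genes, 6 were above all 7 others and 1 below; their mean was 9.23 against 7.66 to 8.04 and lay 1.38 above the WT cerebellum mean, and their median lay 0.31 above it, with Glra1 and Tph2 at 5.43 and 4.52 above. In the cortex, 9 olfactory bulb genes averaged 12.17 in KO 1 and 11.58 in KO 4 against 7.81 to 8.28 in the other 6 arrays. Most comparisons of the 10 genes that include these arrays are also given without them.

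The first question was where in the brain the genes were highest. In WT mice all 10 were lower in the cerebellum than in both forebrain regions, by 1.50-fold to 5.21-fold against the cortex and by 1.40-fold to 6.28-fold against the hippocampus. Cortex and hippocampus did not differ beyond the test's threshold for any of the 10. A tissue sample cannot tell fewer microglia from less RNA per microglial cell. The values are normalized between arrays, so they are also relative to the RNA of the other cells in a sample.

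**Figure D1:**
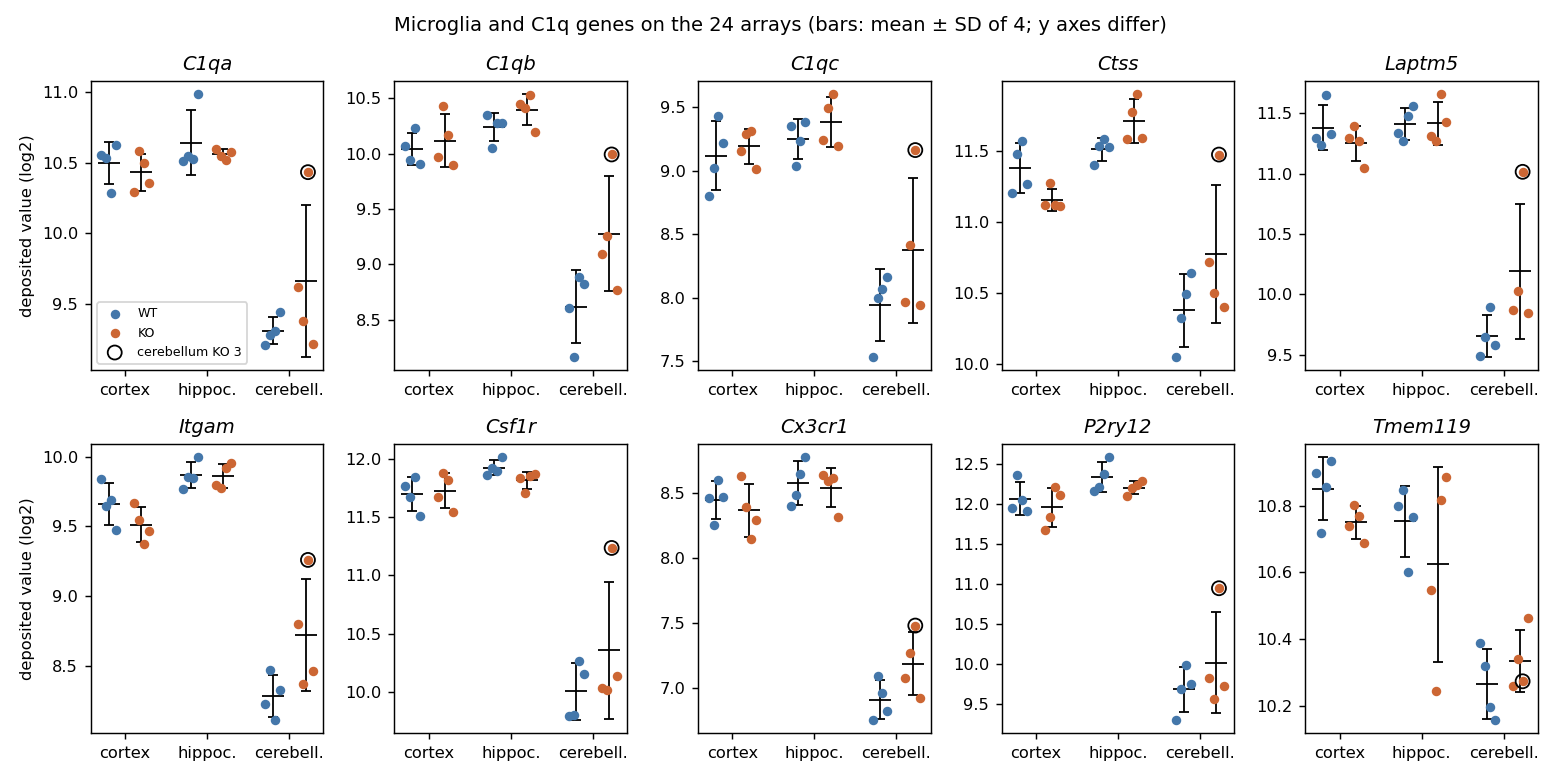
Deposited log2 value (y axis, a separate range for each gene) of the 10 genes on the 24 arrays, by region (x axis) and genotype (blue WT, orange KO); bars are the mean and SD of 4 arrays, and the ring marks cerebellum KO 3. Cerebellum arrays lie below the forebrain arrays for each gene in WT, and the ringed array is the highest of the 8 cerebellum arrays in 9 of the 10 genes.

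The C1q chains came first. C1qb, the B chain, read 10.07, 9.95, 10.23 and 9.91 in WT cortex and 10.35, 10.05, 10.28 and 10.28 in WT hippocampus. In WT cerebellum it read 8.60, 8.16, 8.89 and 8.82. Every cerebellum array was therefore below every forebrain array, and the difference from the cortex was -1.42 (SE 0.18, n = 4 per group; limma, adjusted p = 6.87e-07). C1qc, the C chain, ran from 8.80 to 9.43 in WT cortex, from 9.04 to 9.38 in WT hippocampus and from 7.53 to 8.16 in WT cerebellum. C1qa, the A chain, ran from 10.29 to 10.63, from 10.51 to 10.98 and from 9.21 to 9.44 in the same order. The groups of both genes again did not overlap, with differences from the cortex of -1.17 (SE 0.20) for C1qc and -1.19 (SE 0.17) for C1qa.

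The 3 chains are encoded side by side. In the RefSeq gene table C1qb, C1qc and C1qa follow each other on chromosome 4 with no gene between them, flanked by Gm31536 and Epha8. Promoter windows of 250 bases before the start were looked at for GAGGAA. This sequence is recognised by the Ets-family factor PU.1, which the gene Spi1 encodes and which is required to form microglia. RefSeq entries of build GRCm38.p6 were matched by symbol for 7 of the 10 genes; C1qa, Csf1r and Tmem119 had none. C1qb and C1qc are shown because they are neighbours with like regional differences, and P2ry12 because its regional difference was the largest of the 10. Each is written 5′ to 3′ on the strand of the gene, and capitals mark GAGGAA or its reverse complement TTCCTC.
C1qb, chr4:136886201-136886450, minus strand: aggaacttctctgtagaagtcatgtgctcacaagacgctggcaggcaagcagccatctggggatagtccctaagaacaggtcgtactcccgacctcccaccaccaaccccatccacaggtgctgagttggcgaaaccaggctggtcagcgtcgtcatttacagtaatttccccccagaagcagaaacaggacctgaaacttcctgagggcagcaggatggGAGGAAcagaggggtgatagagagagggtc
C1qc, chr4:136892915-136893164, minus strand: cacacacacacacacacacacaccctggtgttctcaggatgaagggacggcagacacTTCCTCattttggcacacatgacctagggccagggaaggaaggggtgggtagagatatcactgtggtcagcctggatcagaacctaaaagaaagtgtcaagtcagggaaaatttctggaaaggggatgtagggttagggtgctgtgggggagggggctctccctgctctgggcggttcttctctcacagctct
P2ry12, chr3:59262986-59263235, minus strand: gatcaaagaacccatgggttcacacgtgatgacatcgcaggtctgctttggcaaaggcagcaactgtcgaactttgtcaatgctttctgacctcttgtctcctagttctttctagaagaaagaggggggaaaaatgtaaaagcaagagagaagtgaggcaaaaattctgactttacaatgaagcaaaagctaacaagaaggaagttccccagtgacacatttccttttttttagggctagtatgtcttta

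The match began 30 bases before the start in C1qb and 193 bases before it in C1qc, there on the opposite strand. Ctss, Laptm5 and Itgam held a match as well, and Cx3cr1 and P2ry12 held none in this window. With both strands searched, 5 of the 7 genes with an entry and 23.3% of the 32851 entries of the table held it. The match is a stretch of letters and not a measured binding site. Only this exact sequence was searched, so a window without it may hold other sequences that Ets-family factors recognise.

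Of the receptors, P2ry12 differed most between regions. This ADP receptor, which steers the processes of resting microglia, read 11.94, 12.36, 12.04 and 11.91 in WT cortex and 12.17, 12.21, 12.38 and 12.59 in WT hippocampus. In WT cerebellum it read 9.30, 9.69, 9.99 and 9.76. All cerebellum arrays were below all forebrain arrays, with a difference of -2.38 (SE 0.21, n = 4 per group; limma, adjusted p = 6.96e-10) from the cortex and -2.65 (SE 0.21; limma, adjusted p = 9.42e-11) from the hippocampus. Csf1r, the growth factor receptor, ran from 11.51 to 11.84 in WT cortex and from 9.79 to 10.27 in WT cerebellum, a difference of -1.69 (SE 0.18). Cx3cr1, the receptor for Cx3cl1, ran from 8.26 to 8.60 and from 6.76 to 7.10, a difference of -1.53 (SE 0.13).

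The remaining genes split into 3 with clear regional gaps and 1 with a small gap. Laptm5, a lysosomal membrane protein of immune cells, averaged 11.38 ± 0.19 in WT cortex and 9.65 ± 0.17 in WT cerebellum (SD, n = 4), a difference of -1.73 (SE 0.18). Itgam, the alpha chain of a complement receptor, averaged 9.66 ± 0.15 and 8.28 ± 0.15 (SD, n = 4), a difference of -1.38 (SE 0.14). Ctss, a lysosomal protease that trims proteins for antigen presentation, averaged 11.38 ± 0.17 and 10.38 ± 0.25 (SD, n = 4), which is 2.01-fold lower (SE 0.16 on the log2 scale).

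Tmem119, a surface protein used to tell microglia from other macrophages, had the smallest difference of the 10. It read 10.90, 10.72, 10.85 and 10.93 in WT cortex and 10.39, 10.32, 10.20 and 10.16 in WT cerebellum. The groups did not overlap, and the difference was -0.58 (SE 0.11, n = 4 per group; limma, adjusted p = 0.000144). From the hippocampus the cerebellum differed by -0.49 (SE 0.11; limma, adjusted p = 0.00108).

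Counted together, 10 of 10 genes passed the test as lower in WT cerebellum than in cortex (limma, adjusted p under 0.05), where 16.7% of all features did. All 10 also had every cerebellum array below every cortex array, as did 16.4% of features. Their median difference was -1.40, and the median of all features was -0.02. In the ordering of all features by this difference, P2ry12 stood with 1.38% of features lower and Tmem119 with 9.99%. Against the hippocampus, 10 of 10 passed as lower where 17.3% of features did, with a median of -1.60 against 0.03 for all. These comparisons share the cerebellum arrays.

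Hippocampus and cortex of WT mice gave no call among the 10, where 7.09% of features passed. Differences ran from -0.10 for Tmem119 to 0.27 for P2ry12, and 9 of the 10 were on the side of the hippocampus, where 46.8% of all features lay. Only Csf1r had every hippocampus array above every cortex array (11.86 to 12.01 against 11.51 to 11.84), as did 8.76% of features, and its difference of 0.23 (SE 0.18; limma, adjusted p = 0.517) did not pass. The order of mean levels in WT was thus hippocampus, cortex, cerebellum for 9 genes and cortex, hippocampus, cerebellum for Tmem119, with the first pair of neighbours not distinguished by the test for any gene.

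The KO mice form a second set of regional arrays that shares no sample with the WT set. There, 9 of 10 genes passed as lower in cerebellum than in cortex, where 14.2% of features did, with differences from -0.38 for Ctss to -1.94 for P2ry12 and a median of -0.83. Ctss did not pass (SE 0.16; limma, adjusted p = 0.0785), but passed after a further quantile normalization (adjusted p = 0.039) and with array weights (adjusted p = 0.001). Without cortex KO 1 and KO 4 the same 9 genes passed, Ctss again not, at -0.42 (limma, adjusted p = 0.142). The share of all features is not given for that fit. In 6 of the 10 every cerebellum array was below every cortex array, as in 11.8% of features. Without cerebellum KO 3, 10 of 10 passed where 14.8% of features did, the median was -1.08 and the Ctss difference was -0.62 (SE 0.13; limma, adjusted p = 0.000435).

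Against the hippocampus of KO mice, 9 of 10 genes were lower in the cerebellum by the test, where 14.6% of features were, and the median was -1.13. Tmem119 did not pass, at -0.29 (SE 0.11; limma, adjusted p = 0.0506), but passed without KO animal 2 (adjusted p = 0.00769) and without the dimmest 25% of features (adjusted p = 0.0378). Without KO 3 the count was again 9 of 10 (16% of features), and Tmem119 was at -0.27 (SE 0.12; limma, adjusted p = 0.0944). Tmem119 varied widely between KO hippocampus arrays, at 10.55, 10.24, 10.82 and 10.89.

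**Figure D2:**
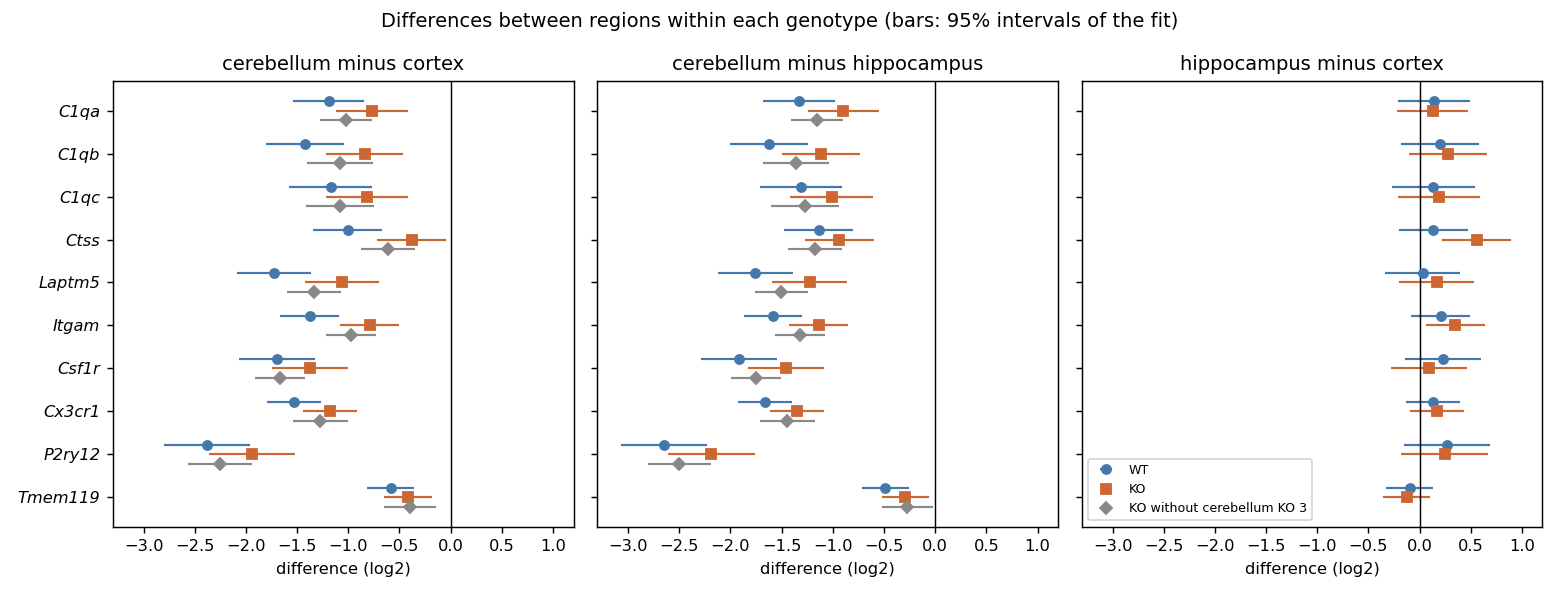
Difference between regions in log2 (x axis) for each gene, in WT (blue), KO (orange) and KO without cerebellum KO 3 (grey), with 95% intervals of the fit. Both cerebellum panels lie to the left of 0 for every gene, from -2.65 for P2ry12 to -0.27 for Tmem119, and in the panel of hippocampus minus cortex 9 of 10 genes lie to the right of 0 in each genotype, up to 0.56 for Ctss in KO.

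Between hippocampus and cortex of KO mice 9 of 10 genes were on the side of the hippocampus, as were 49.8% of features, with a median of 0.18, and Ctss alone of the 10 passed, where 3.79% of features passed as higher. Ctss read 11.12, 11.27, 11.12 and 11.12 in KO cortex and between 11.58 and 11.90 in KO hippocampus, so the groups did not overlap, as in 7.13% of features. The difference was 0.56 (SE 0.16; limma, adjusted p = 0.0371). It did not pass without the cortex arrays KO 1 and KO 4, at 0.52 (adjusted p = 0.175). Nor did it pass without KO animal 1 (adjusted p = 0.102), 2 (adjusted p = 0.089) or 4 (adjusted p = 0.0817). Itgam ran from 9.77 to 9.95 in KO hippocampus and from 9.37 to 9.66 in KO cortex, again without overlap, and its difference of 0.35 (SE 0.14; limma, adjusted p = 0.153) did not pass, but did with array weights (adjusted p = 0.044).

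The second question was whether the liver knockout altered the 10 genes in the brain. None of the 10 passed in any region, and no feature of the whole table did (0% in each region; limma, adjusted p under 0.05). Unadjusted p-values under 0.05 occurred in 7.45% of features (1459) for the cortex, 2.11% (412) for the hippocampus and 9.5% (1860) for the cerebellum. In the cortex and the hippocampus the differences of the 10 genes lay on both sides of 0, and in the cerebellum all 10 lay above it.

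In the cortex, KO minus WT ran from -0.22 for Ctss to 0.08 for C1qb, with 3 of 10 above 0 (47.1% of all features) and 0 of 10 with an unadjusted p under 0.05. Ctss read 11.20, 11.48, 11.57 and 11.27 in WT and 11.12, 11.27, 11.12 and 11.12 in KO. The ranges overlapped through KO 2, and the difference (SE 0.16, limma, adjusted p = 0.818) did not pass. This SE pools the spread of all 6 groups. The SD of Ctss was 0.17 in WT cortex, 0.08 in KO cortex and 0.49 in KO cerebellum, which includes KO 3. The 95% intervals of the 10 genes reached -0.56 at the lowest and 0.48 at the highest. Without KO 1 and KO 4, which carried the olfactory bulb genes, 4 of 10 were above 0 (47.2% of features), from -0.20 for Itgam to 0.26 for C1qb.

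In the hippocampus the differences ran from -0.13 for P2ry12 to 0.20 for Ctss, with 4 of 10 above 0 (52.5% of all features) and 0 of 10 with an unadjusted p under 0.05. C1qb read 10.35, 10.05, 10.28 and 10.28 in WT and 10.45, 10.42, 10.53 and 10.20 in KO. It was higher than all WT arrays in 3 of 4 KO arrays, a difference of 0.16 (SE 0.19; limma, adjusted p = 1). The intervals reached -0.56 at the lowest and 0.54 at the highest.

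The cerebellum gave the largest differences. C1qb read 8.60, 8.16, 8.89 and 8.82 in WT and 9.09, 9.26, 9.99 and 8.77 in KO. In 3 of 4 KO arrays it was above all WT arrays, KO 4 lay among them, and the difference was 0.66 (SE 0.19, n = 4 per group; limma, adjusted p = 0.435). Laptm5 read 9.49, 9.65, 9.90 and 9.58 in WT and 9.87, 10.03, 11.02 and 9.85 in KO, a difference of 0.54 (SE 0.18; limma, adjusted p = 0.435). Its KO 1 and KO 4 arrays lay inside the WT range, and KO 3 lay far above it.

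Itgam read 8.22, 8.47, 8.11 and 8.32 in WT and 8.80, 8.36, 9.26 and 8.46 in KO, so 2 of 4 KO arrays were above all WT arrays. Its difference was 0.44 (SE 0.14; limma, adjusted p = 0.435). The other genes ran from 0.07 for Tmem119 to 0.43 for C1qc. In all, 10 of 10 were above 0, as were 49.2% of features, 7 of 10 had an unadjusted p under 0.05 on the higher side, as had 5.97% of features, and no gene had KO and WT groups that did not overlap, as 1.93% of features had on the higher side. The median of the 10 was 0.38 and that of all features -0.0037. The SE of a gene pools its spread over all 6 groups. The SD was larger in KO than in WT cerebellum for every gene but Tmem119 (0.09 against 0.11). It was 0.54 against 0.10 for C1qa and 0.52 against 0.33 for C1qb. Except for Tmem119, the SE and p-values thus understate the spread of the KO cerebellum arrays.

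Cerebellum KO 3 was the highest of the 8 cerebellum arrays in 9 of the 10 genes, as it was in 23.8% of all features. Tmem119 was the exception, at 10.27 in KO 3 with its highest value, 10.46, in KO 4. The distance from KO 3 to the next array was 0.81 for C1qa, 0.74 for C1qb, 0.75 for C1qc, 0.99 for Laptm5, 0.97 for Csf1r and 0.96 for P2ry12. It was 0.21 for Cx3cr1 and 0.46 for Itgam.

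Without KO 3, the 10 genes were again all above 0, as were 54.3% of features, but closer to it, with a median of 0.17 against 0.01 for all features. C1qb was at 0.42 (SE 0.16, n = 3 and 4; limma, adjusted p = 0.999), Laptm5 at 0.26 (SE 0.13; limma, adjusted p = 0.999) and Itgam at 0.26 (SE 0.12; limma, adjusted p = 0.999). These 3 had an unadjusted p under 0.05, as had 2% of features on the higher side and 688 features in all (3.52%). P2ry12 was at 0.02, Csf1r at 0.06, Tmem119 at 0.09 and C1qa at 0.10, and Cx3cr1, Ctss and C1qc lay between 0.16 and 0.18. The 10 genes were measured on the same arrays, so they are not 10 independent observations.

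**Figure D3:**
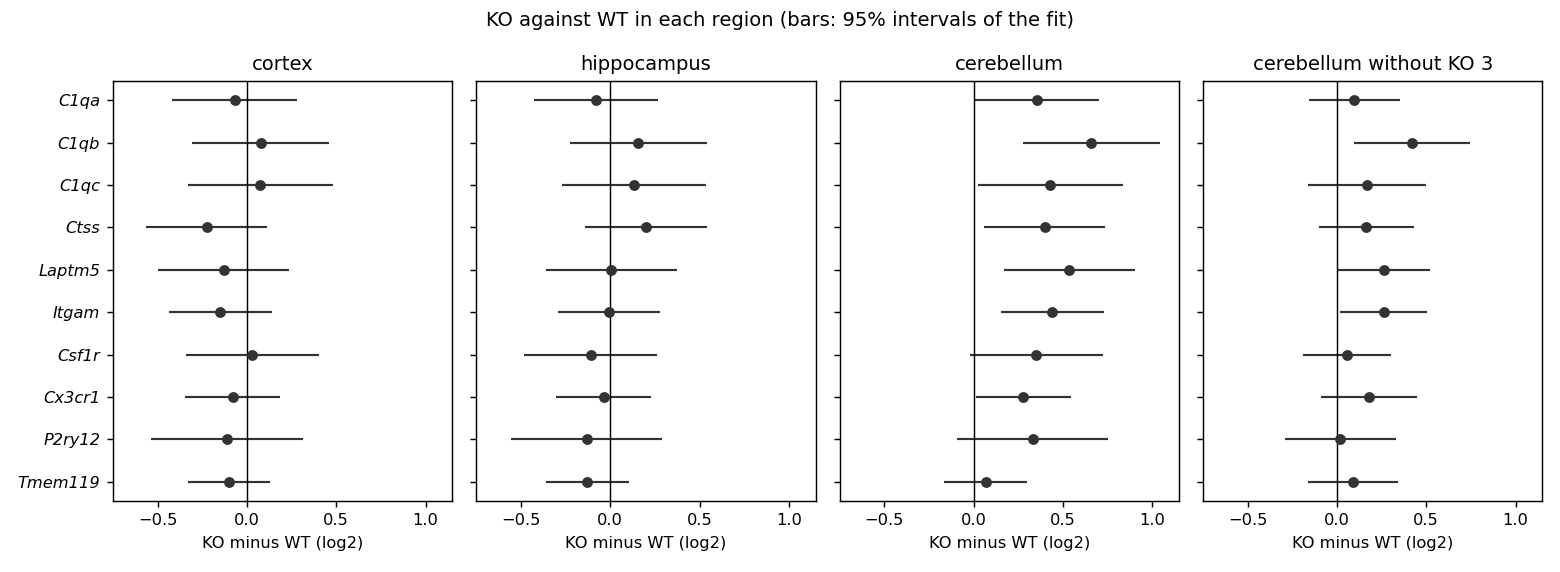
KO minus WT in log2 (x axis) for each gene in the cortex, the hippocampus, the cerebellum and the cerebellum without KO 3, with 95% intervals of the fit. The intervals use the spread of a gene pooled over all 6 groups. In the cerebellum all 10 points are above 0, up to 0.66 for C1qb, and without KO 3 they run from 0.02 for P2ry12 to 0.42 for C1qb.

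Averaged over the regions, with the animal as a block, 9 of 10 genes were above 0, as were 50.6% of features, and none passed. C1qb was at 0.30 (SE 0.11; limma, adjusted p = 0.661) and was the only one of the 10 with an unadjusted p under 0.05, as were 7.41% of features. Without cerebellum KO 3 it was at 0.22 (limma, adjusted p = 0.803), and 6 of 10 were above 0, with no share of all features given for that fit. The test of whether the knockout difference varied between regions passed for none of the 10 and for no feature. Itgam (F = 4.87), Laptm5 (F = 3.93) and Ctss (F = 3.77) had an unadjusted p under 0.05 (limma, adjusted p = 0.921 for each), as had 5.09% of features.

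How far cerebellum KO 3 lay from the other arrays was measured for each gene as its distance above the WT cerebellum mean, in percent of the gap from there to the WT cortex mean. Ctss stood at 109%, C1qc at 104%, C1qb at 96.7% and C1qa at 94.3%, so the C1q chains and Ctss were at or near the WT cortex mean on this array. Laptm5 stood at 78.9%, Csf1r at 72.6%, Itgam at 70.8%, P2ry12 at 53.0%, Cx3cr1 at 37.1% and Tmem119 at 1.44%. In all, 2257 features passed the test as lower in WT cerebellum than in WT cortex and differed by more than 0.5. Over these features the median place of KO 3 was 38.6%, and that of KO 1, KO 2 and KO 4 was 8.15%, 8.49% and 6.18%. KO 3 was the highest cerebellum array in 61.1% of those features.

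**Figure D4:**
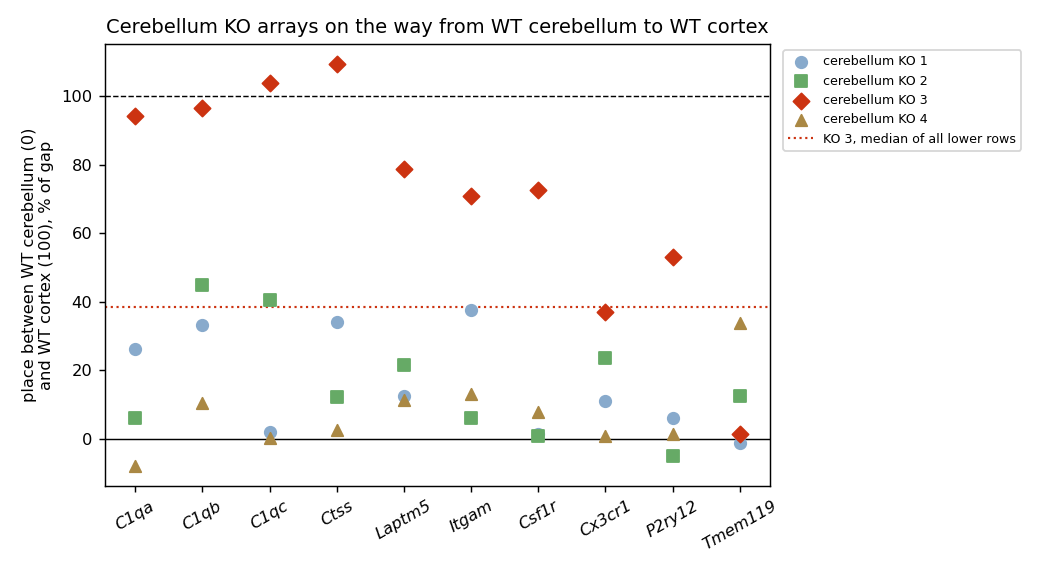
Place of each cerebellum KO array above the mean of WT cerebellum, in percent of the gap from there to the mean of WT cortex (y axis), for each of the 10 genes. KO 3 (red diamonds) runs from 1.44% for Tmem119 to 109% for Ctss, and the dotted line marks 38.6%, its median over all 2257 features lower in WT cerebellum.

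Other marker lists were set beside the 10 genes on this array. The mean of the 10 genes was 10.13 in KO 3 and 8.94 to 9.33 on the other 7 cerebellum arrays, and that of 23 further microglia genes was 8.81 against 8.17 to 8.32. The mean of 11 genes of border macrophages, which live in the meninges and along vessels, was 7.42 against 7.25 to 7.35. Of these 11, 4 were above all 7 others and 1 below, and their median lay 0.03 above the WT cerebellum mean. The mean of 13 blood leukocyte genes was 7.10 against 6.96 to 7.16, inside the range of the others. The mean of neuron genes was 15.17 against 14.01 to 14.62. Endothelial genes averaged 10.80 against 10.21 to 10.45, and astrocyte genes 13.63 against 13.07 to 13.39. Of 10 neuron genes, 6 were above all 7 others and 1 below, led by Uchl1 at 2.76 above the WT cerebellum mean. Of 10 endothelial genes 5 were above and 0 below, and of 10 astrocyte genes 5 and 1. The medians of these lists lay 0.44, 0.51 and 0.35 above that mean, in this order. Of 7 neocortical genes, 3 were above all 7 other arrays, led by Lamp5 at 5.12 above the WT cerebellum mean, and the list's median was -0.02 from that mean. Over all features, KO 3 was above all 7 other cerebellum arrays in 23.8%. The share below all of them is not given here. The part of the brainstem, oligodendrocyte and other markers in the cerebellum values of the 10 genes was not tested.

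**Figure D5:**
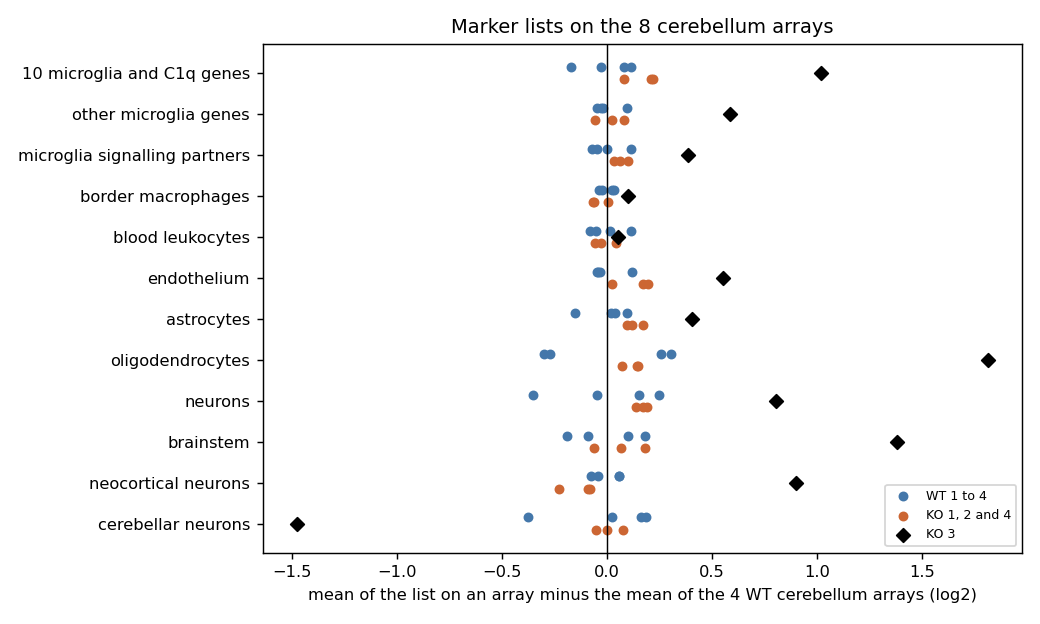
Mean of each marker list on the 8 cerebellum arrays, as the difference from the mean of the 4 WT cerebellum arrays in log2 (x axis), with WT arrays in blue, KO 1, 2 and 4 in orange and KO 3 as a black diamond. KO 3 lies to the right for microglia, oligodendrocyte, neuron and brainstem genes, to the left for cerebellar neuron genes, and within the other arrays for blood leukocyte genes.

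Further microglia genes gave the wider picture of the cell type. Of 23 measured genes, 19 passed as lower in WT cerebellum than in WT cortex (16.7% of features) and 0 as higher (19.1% of features), with a median of -0.93. Fcrls, a microglial Fc receptor-like protein, differed by -1.79 (SE 0.18), Selplg, a ligand of selectins, by -1.31 (SE 0.18) and Gpr34, a lysophospholipid receptor, by -1.29 (SE 0.18). Between hippocampus and cortex of WT, 1 of 23 passed, where 7.09% of all features did: Ly86, a partner protein of a Toll-like receptor relative, was higher in the hippocampus by 0.74 (SE 0.23; limma, adjusted p = 0.0462), and it missed the threshold after a further quantile normalization (adjusted p = 0.0541) and without any 1 of the 4 WT animals (adjusted p = 0.0999 to 0.218). Against WT hippocampus, 19 of 23 passed as lower in WT cerebellum (17.3% of all features), with Fcrls at -1.87 (SE 0.18), Ly86 at -1.72 (SE 0.23) and Gpr34 at -1.67 (SE 0.18). In KO mice 19 of 23 passed as lower in cerebellum than in cortex (14.2% of all features).

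For KO against WT none of the 23 passed. In the cerebellum 19 of 23 were above 0 (49.2% of all features), with a median of 0.18. Without KO 3, 13 of 23 were (54.3% of all features), with a median of 0.01. Ly86 was at 0.53 (SE 0.23; limma, adjusted p = 0.491) with KO 3 and at 0.19 without it, and Fcer1g, an adaptor of Fc receptors, at 0.47 (SE 0.21; limma, adjusted p = 0.501) and 0.15. In the cortex Sall1, a transcription factor of microglia that other neural cells also use, was at 1.11 (SE 0.35; limma, adjusted p = 0.494) with an SD of 1.29 in the KO arrays against 0.10 in WT, and at 0.01 (adjusted p = 0.999) without KO 1 and KO 4.

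Among 7 measured transcription factors of the myeloid lineage, 2 passed as lower in WT cerebellum than in WT cortex, where 16.7% of all features did: Spi1, which encodes PU.1, by -1.27 (SE 0.19; limma, adjusted p = 4.39e-06) and Irf8, which microglia need to mature, by -0.39 (SE 0.10; limma, adjusted p = 0.00215), or -0.28 (adjusted p = 0.0607) without WT animal 1. Spi1 averaged 8.84 ± 0.36 in WT cerebellum and 10.10 ± 0.09 in WT cortex (SD, n = 4), and its difference from WT hippocampus was -1.55 (SE 0.19). Its knockout difference in the cerebellum was 0.26 (SE 0.19; limma, adjusted p = 0.661), and -0.01 (SE 0.14; limma, adjusted p = 0.999) without KO 3.

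Of 15 measured genes for signals that microglia receive from neurons and other cells, 7 passed as lower (16.7% of all features) and 1 as higher (19.1%) in WT cerebellum than in WT cortex, with a median of -0.31. Cx3cl1, the neuronal ligand of Cx3cr1, differed by -3.48 (SE 0.20), Il34, a neuronal ligand of Csf1r, by -1.94 (SE 0.15) and Tgfbr1, a receptor chain for the microglial maintenance factor TGF-beta, by -1.33 (SE 0.17). From WT hippocampus the same 3 differed by -3.02 (SE 0.20), -1.69 (SE 0.15) and -1.39 (SE 0.17). For KO against WT in the cerebellum, Cx3cl1 was at 0.64 (SE 0.20; limma, adjusted p = 0.435) and, without KO 3, at 0.37 (SE 0.16; limma, adjusted p = 0.999).

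The rest of the complement system was counted in the same way. Of 11 measured genes that act after C1q, 0 passed between WT cerebellum and WT cortex in either direction (16.7% of all features lower, 19.1% higher), with a median of -0.13. C4b, which C1 cleaves next, was higher in WT hippocampus than in cortex by 0.52 (SE 0.14; limma, adjusted p = 0.0242) and lower in cerebellum than in hippocampus, at -0.78 (SE 0.14; limma, adjusted p = 6.98e-05); the first of these did not pass without any 1 of the 4 WT animals (adjusted p = 0.0549 to 0.185). Of 11 genes of the alternative and lectin pathways, the largest calls between WT cerebellum and WT cortex were Masp2, Colec12 and Cfp. Over all features, 16.7% passed as lower and 19.1% as higher. How many of the 11 passed is not given here, so the list as a whole is not set against these shares. Masp2, a lectin pathway protease, was lower in WT cerebellum at -1.03 (SE 0.14). Colec12, a scavenger lectin, and Cfp, or properdin, were higher at 0.89 (SE 0.17) and 0.84 (SE 0.19). Against WT hippocampus these 3 were at -0.97 (SE 0.14), 0.58 (SE 0.17) and 0.94 (SE 0.19), and Masp1, another lectin pathway protease, was lower in WT hippocampus than in cortex, at -0.52 (SE 0.11). Without WT animal 1 Masp1 was at -0.38 (adjusted p = 0.0936), and Colec12 against the hippocampus did not pass without WT animal 2 (adjusted p = 0.0686) or 4 (adjusted p = 0.0604).

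Of 28 measured receptors, regulators and synaptic proteins with complement-like domains or roles, 9 passed as lower (16.7% of all features) and 4 as higher (19.1%) in WT cerebellum than in cortex. Nptx2, a neuronal pentraxin that binds C1q, differed by -1.96 (SE 0.16), and Csmd2, a synaptic protein with complement control domains, by -1.52 (SE 0.13). Cd59a, which blocks the final membrane attack complex, was higher in the cerebellum by 1.63 (SE 0.45). Against WT hippocampus the leading 3 were Csmd3 at -1.31 (SE 0.19), Sez6 at -1.26 (SE 0.17) and Sez6l at -1.21 (SE 0.15), synaptic proteins with complement control domains. Between WT hippocampus and cortex, Nptx2 was at -1.01 (SE 0.16), Csmd2 at -0.67 (SE 0.13) and Cd55, which speeds the decay of complement enzymes, at 0.75 (SE 0.21); Cd55 did not pass without any 1 of the 4 WT animals (adjusted p = 0.0531 to 0.2). None of these complement genes passed for KO against WT. In the cerebellum 10 of 11 genes after C1q lay below 0, where 49.2% of all features lay above it. As a list these genes were dim, with a mean of 7.38 in WT cerebellum against array medians of 8.72 to 8.82. C4b, at 8.96 there, was above those medians. C7, a part of the membrane attack complex, was at -0.33 (SE 0.13, limma, adjusted p = 0.448) and, without KO 3, at -0.28.

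Genes linked to microglial activation showed no call for the knockout. Of 30 measured, 5 passed as lower and 2 as higher in WT cerebellum than in cortex, near or below the 16.7% and 19.1% of all features, among them Ptgs2, an inducible prostaglandin enzyme that neurons also make, at -3.79 (SE 0.37), Apoe, a lipid carrier, at -0.58 (SE 0.14), and Cd63, a lysosomal membrane protein, at 0.63 (SE 0.17). Against WT hippocampus Ptgs2 was at -4.05 (SE 0.37), Apoe at -0.78 (SE 0.14) and Lpl, a lipase, at -0.71 (SE 0.14), and Cd63 was higher in WT hippocampus than in cortex by 0.66 (SE 0.17). The last did not pass without WT animal 1 (adjusted p = 0.102), 3 (adjusted p = 0.164) or 4 (adjusted p = 0.0508). For KO against WT in the cerebellum 19 of 30 were above 0 (49.2% of all features), with a median of 0.06. Without KO 3, 14 of 30 were (54.3% of all features), with a median of -0.01. Ccl2, a chemokine, was at -0.42 (SE 0.14; limma, adjusted p = 0.435), or -0.39 without KO 3, and Ctsb, a lysosomal protease, at 0.24 (SE 0.11; limma, adjusted p = 0.497), or 0.18. Border macrophage genes gave 0 calls of 11 between WT cerebellum and WT cortex (16.7% of all features lower, 19.1% higher). The mean of the list was 7.32 ± 0.03 and 7.42 ± 0.10 (SD, n = 4). Mrc1, a mannose receptor, was the 1 gene of 11 that passed as lower in WT cerebellum than in WT hippocampus (17.3% of all features). It was at -0.57 (SE 0.22, limma, adjusted p = 0.0494). Mrc1 did not pass without the animal block (adjusted p = 0.0507) or after quantile normalization (adjusted p = 0.0593). Nor did it pass without WT animal 1 (adjusted p = 0.285), 2 (adjusted p = 0.115) or 3 (adjusted p = 0.116).

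How the 10 genes varied among arrays of 1 group was described by correlations over the 24 arrays after each group's mean was subtracted, which share animals and, above all, cerebellum KO 3. Each gene was set against the mean of the other 9. Laptm5 was closest (r = 0.929), followed by Csf1r (r = 0.909) and Ctss (r = 0.877), with C1qc at 0.809 and C1qa at 0.803. Tmem119 was at -0.196. Without KO 3 the values were 0.756 for Laptm5, 0.614 for Csf1r, 0.657 for Ctss, 0.566 for C1qc, 0.306 for C1qa, 0.0589 for Itgam and -0.213 for Tmem119.

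Outside the 10, the features closest to their mean over 24 arrays were Nkain2 (r = 0.944), Neto1 (0.928), Slc25a1 (0.9), Rplp1 (0.897), Uchl1 (0.896), Hnmt (0.888), Vstm2a (0.885) and Dusp19 (0.885). Without KO 3 only Nkain2 (r = 0.803) stayed among the leading 8, which Mpi led (r = 0.82). For the mean of the 3 C1q chains, Hnmt (r = 0.91), Uchl1 (0.889), Nkain2 (0.884), Ly86 (0.88) and Plpp1 (0.876) were closest, and none of them stayed among the leading 5 without KO 3. The mean of the 23 further microglia genes had r = 0.938 with the 10 genes over 24 arrays and 0.699 without KO 3. The mean of the brainstem genes had 0.798 and 0.0524.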

How the data were processed

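Total RNA of 24 brain samples was measured on arrays with 1 value per transcript cluster. The deposited values are log2 values that the authors made with RMA (background correction, normalization between arrays and summary of probes), per the submitters' processing notes; its version and settings, like the genome build, are not stated there. RMA compresses differences among dim probes. The scale was taken to be log2 from the range of the values (3.89 to 19.14, array medians 8.72 to 8.82). The labels name both biotin and Cy3 chemistry. Values were used as deposited and no feature was left out as dim, and features without a gene were not tested.

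The fit used limma 3.58.1 under R 4.3.3 and all 19572 features (lmFit, eBayes, 2-sided; 18 residual degrees of freedom, prior 6.9) with 1 mean for each of 6 groups, and Benjamini-Hochberg adjustment of p-values over all features. For comparisons across regions the animal was a random block (duplicateCorrelation, statmod 1.5.0). The pairing of regions comes from the titles; deviations of the regions of 1 animal correlated at -0.191 to 0.297 over 24 pairs (median 0.0363), and the consensus correlation was 0.00646. Where nothing but a title says that animals differ, p-values measure the spread between samples. The procedure was also run on simulated data with independent spread between arrays, no animal effect and no outlying array. That run does not show how it behaves with arrays such as cerebellum KO 3. The 10 genes, the 19 other lists and the naming rule were chosen with earlier results of these data known: all 10 genes, the 3 largest calls of each microglia, complement and border macrophage list between WT regions, the 2 smallest p-values of each such list for KO against WT, and the features of highest correlation. Cell type and region lists are given as means or counts. The feature of the deleted gene is not reported here. Alternatives tried were other sample sets, a block by number, quantile normalization, array weights, a filter on dim features and leaving out samples.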

Additional observations from a re-analysis of the deposited data

Results flagged for a closer look

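In each of the 60 groups of 4 arrays (10 genes, 6 groups), the highest and the lowest array were set against the other 3 by Dixon's ratio of gap to range. In 5 groups 1 array stood apart, and chance flags about 1 in 20 groups. Cerebellum KO 3 gave 2 of them: Laptm5 was 11.02 there and 10.03 on the next array, and Csf1r was 11.23 and 10.14. The cerebellum differences without this array are 0.26 for Laptm5 and 0.06 for Csf1r. C1qa was 10.98 in hippocampus WT 4 and 10.54 on the next array. Ctss was 11.27 in cortex KO 2, with the other KO cortex arrays at 11.12. Cx3cr1 was 8.32 in hippocampus KO 4, the lowest of its group, with the next at 8.59.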

How the results depend on the processing

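The 10 genes stayed lower in the cerebellum under each alternative tried. Over called differences of the 10 genes, 336 of 340 alternative values kept their direction and call, 4 lost the call (all for Ctss between KO hippocampus and cortex) and 0 turned; over those not called, 926 of 970 kept both, 7 passed and 37 turned. WT and KO animals share only a number: deviations of their same-numbered arrays correlated at -0.243 to 0.297 over 12 pairs (median -0.0358, 2 above 0.1). A block by that number gave 22 calls over all features in the cerebellum in place of 0, with 0 of the 10 genes among them. Leaving out the animal block where regions are joined changed no call of the 10 genes. No scanner files were used, so detection over background could not be judged.

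With a further quantile normalization, KO minus WT turned to -0.0054 for Csf1r in the cortex, -0.0057 for Laptm5 in the hippocampus and -0.0112 for P2ry12 in the cerebellum without KO 3, and hippocampus minus cortex in WT turned to -0.0248 for Laptm5. With array weights, KO minus WT turned to 0.0003 for Cx3cr1 in the hippocampus and -0.0471 for P2ry12 averaged over regions; hippocampus minus cortex gave 2663 calls in WT (1387 otherwise) and 2 of the 10 genes in KO (1 otherwise). Without cortex KO 1 and KO 4, 0 of the 10 passed between hippocampus and cortex of KO mice and Csf1r turned to -0.0326, while KO minus WT in the cortex turned to 0.0397 for C1qa, -0.0755 for Nt5e and -0.0706 for Gpnmb. Alternatives within the cerebellum without KO 3 and the cortex without KO 1 and KO 4 were chosen after seeing the data, as were the correlations without KO 3. The cause of these changes was not tested.

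With 1 array or animal left out at a time, calls over all features for KO minus WT ran from 0 to 55 in the cortex, 0 to 1 averaged over regions and 0 to 7 in the cerebellum without KO 3. Those for hippocampus minus cortex ran from 520 to 912 in WT (837 without animal 3, 883 without animal 4) and 862 to 1340 in KO, with 0 to 1 of the 10 genes in KO. The following values crossed 0. KO minus WT in the cortex ran from -0.0254 to 0.1505 for C1qb, -0.0304 to 0.1802 for C1qc and -0.0332 to 0.0909 for Csf1r. In the hippocampus it ran from -0.1245 to 0.0339 for C1qa, -0.0955 to 0.0378 for Cx3cr1, -0.0393 to 0.0371 for Itgam and -0.0745 to 0.057 for Laptm5. In the cerebellum it ran from -0.0139 to 0.4251 for Spi1. In the cerebellum without KO 3 it ran from -0.0114 to 0.1911 for C1qa, -0.0133 to 0.1455 for Csf1r, -0.1077 to 0.1209 for P2ry12 and -0.1341 to 0.1509 for Spi1. Averaged over regions it ran from -0.0208 to 0.1346 for C1qa, -0.0215 to 0.1328 for Csf1r and -0.1059 to 0.0937 for P2ry12, with C1qa at -0.0177 and Csf1r at -0.0072 without cerebellum KO 3 and P2ry12 at -0.0453 without WT animal 1. Hippocampus minus cortex ran from -0.0048 to 0.2451 for C1qc and -0.0358 to 0.1003 for Laptm5 in WT, and from -0.2334 to 0.0185 for Tmem119 in KO.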

Other observations

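Complement and microglia genes outside the 10 gave no call for KO against WT in the cortex or the hippocampus either. Masp2, a protease of the lectin pathway, was above 0 in each region: 0.33 (SE 0.14; limma, adjusted p = 0.627) in the cortex, or 0.16 without KO 1 and KO 4, 0.39 (SE 0.14; limma, adjusted p = 1) in the hippocampus and 0.30 (SE 0.14; limma, adjusted p = 0.517) in the cerebellum, or 0.34 there without KO 3. Cfb, a protein of the alternative pathway, was at -0.36 in the cortex, or -0.26 without KO 1 and KO 4, and 0.24 in the hippocampus. Cd55 was at 0.52 (SE 0.21; limma, adjusted p = 0.591) in the cortex, or 0.54 without KO 1 and KO 4, and 0.45 in the cerebellum, or 0.16 without KO 3.

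In the cortex the other leading genes of each list are given with all arrays and then without KO 1 and KO 4. Nt5e (0.22, then -0.08) and Gpnmb (0.29, then -0.07) turned. Sez6 (0.42, then 0.08), Cbr2 (0.38, then 0.20), Mrc1 (0.31, then 0.12) and Tgfb1 (-0.27, then -0.16) moved closer to 0, and Tal1 (-0.17, then -0.34) moved away. The rest were C6 (-0.24, then -0.31), C2 (0.27, then 0.26), Ctsz (0.25, then 0.21), P2ry13 (0.19, then 0.24) and Irf8 (-0.15, then -0.11). In the hippocampus they were Hc at 0.12, C9 at -0.14, Csmd2 at 0.22, Cr1l at 0.16, Tgfbr1 at 0.21, P2rx7 at -0.16, Il1a at 0.27, Nos2 at 0.24, Ms4a7 at 0.22, F13a1 at -0.22, Trem2 at -0.18, Itgb2 at 0.18, Cebpa at 0.25 and Tal1 at -0.20. In the cerebellum the values are with all arrays and then without KO 3. Tgfbr1 (0.42, then 0.20), Clu (0.31, then 0.18) and Mrc1 (0.38, then 0.22) moved closer to 0. The others were Mbl1 (-0.37, then -0.27), C8b (-0.17, then -0.17), Siglec1 (-0.19, then -0.23) and Tal1 (-0.33, then -0.36). No adjusted p of these genes was under 0.05.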
